A study of Mus musculus with 768 samples.

Results

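The genes described here are 49 genes of the G2 phase and of mitosis, found by symbol among the 52636 genes that the study measured in single cells of mouse cochlear organoids. All 49 were found in both deposited tables, and all 49 passed the filter on low counts and were tested. They were sorted by role into 10 kinases, cyclins and partners of mitotic entry, 8 genes of chromosome structure, 7 of the centromere and kinetochore, 6 of the spindle checkpoint and the chromosomal passenger complex, 10 of the spindle, 3 of mitotic protein destruction and 5 of cytokinesis. The study took cells of the greater epithelial ridge, the epithelium on the inner side of the neonatal cochlear duct, by flow cytometry from mice on postnatal day 2 that carried Sox2-GFP, Fgfr3-CreERT2 and Ai14-tdTomato. It grew them into organoids and profiled 768 hand-picked cells with SmartSeq2, which copies whole transcripts and uses no molecular identifiers, on culture days 1, 3 and 7. Day 1 had 3 cultures with 192 cells, day 3 had 3 with 255 and day 7 had 5 with 321, as the labels number them, and the culture was the unit of every test. Every group carried the same alleles, of which the Fgfr3-CreERT2 driver with the Ai14 reporter marks cells only where Fgfr3 is expressed and Cre is induced, and mice without them were not analysed here. Every group also received the same medium, DMEM/F-12 with N-2 and B-27, ampicillin, the growth factors IGF1, FGF2 and EGF, valproic acid, CHIR99021 (which inhibits GSK3), 2-phospho-L-ascorbic acid and the TGFβ receptor inhibitor 616452. Uncultured cells were not analysed here, so day 1 in culture was the earliest time. The labels do not say whether the cultures of a day came from separate mice, so the p-values below measure the spread between these cultures only.

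A cell divides in a fixed order of steps. In G2 the B-type cyclins accumulate and activate the kinase Cdk1, which drives entry into mitosis. Condensins and topoisomerase then compact and untangle the chromosomes, kinetochores tie them to the spindle, and a checkpoint holds the cell until each pair is attached. The anaphase-promoting complex with its activator Cdc20 then marks cyclin B and securin for destruction, and the cell is cut apart at the midzone. Most genes of these steps are transcribed late in the cycle and are kept silent in resting cells by complexes that bind their promoters. Cells of the neonatal cochlear epithelium have largely left the cell cycle, and division in culture is the step on which organoid growth rests.

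Of the 768 cells, 711 were retained, each with 50000 or more reads, 1500 or more detected genes and no more than 20% of mitochondrial reads. Summed reads per culture ranged from 26391412 to 72483565 and the median reads per cell from 648000 to 971200. No cells had identical counts. Epcam or Cdh1, which mark epithelium, had a read in 99.7% of the retained cells. Levels are given as CPM, reads per culture on a common scale of library size after TMM scaling. The cell type marker levels, in this paragraph and for Dcn further on, are CPM without TMM scaling. The summed level of the marker list for the greater epithelial ridge and supporting cells was 4628 to 6158 CPM on day 1, 2814 to 4013 on day 3 and 2590 to 4038 on day 7. Most of it was Tecta (1124 to 3514 CPM over the cultures) and the general epithelial gene Epcam (742.5 to 1901 CPM). The members of this list differed in direction. Lgr5 was at 112.9 to 188.1 CPM on day 1 and 16.7 to 39.3 on day 7, and Otog and Slc1a3 were also lower on day 7. Jag1 was at 170.5 to 224.5 and 202.8 to 697.8 CPM, and Fgfr3 did not exceed 6.44 CPM. The lists for immune cells, endothelium, erythroid cells and melanocytes each summed to at most 9.64 CPM in any culture, and in the endothelial list Pecam1, Kdr and Tie1 were at 0 throughout. Hair cell markers reached 247.5 CPM in a day 3 culture and glial markers 118.0 CPM in a day 7 culture. The mesenchyme list summed to 202.0 to 1105 CPM, almost all of it Dcn, while Col1a1 did not exceed 2.25 CPM in any culture.

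The day 3 cultures had more of these transcripts than the day 1 cultures for every member, but no single gene passed the test. Fold changes are log2 values from edgeR with their standard error (SE). A gene was called at a Benjamini-Hochberg adjusted p under 0.05 over the 17466 genes tested. For day 3 against day 1, edgeR called 0 of the 49 members, against a background of 0.0115% of all tested genes called as higher. The median fold change was 1.93, against 0.02 over all tested genes. An unadjusted p under 0.05 was found for 48 of 49 members, and for 1617 of all 17466 genes. The DESeq2 Wald test called 28 members on the same sums, and limma on the mean CPM per cell called 9. In 48 of 49 members each day 3 culture lay above each day 1 culture, where 9.88% of all genes did so. Nuf2, which ties the kinetochore to microtubules, was the exception, with 23.8 CPM in day 1 culture 3 and 19.4 CPM in day 3 culture 3.

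By day 7 most of the members were called. For day 7 against day 1, edgeR called 41 of 49 as higher and 0 as lower, against 3.55% of all tested genes called as higher. The median fold change was 2.36, against 0.00 over all genes, and the members ran from 0.93 for Cenpe to 4.04 for Ccnb2. In 37 members each day 7 culture lay above each day 1 culture, against 8.71% of all genes. The 8 members that were not called were Cks2, Smc4, Nuf2, Cenpe, Cenpf, Gtse1, Anln and Kif20b, with edgeR adjusted p from 0.0555 to 0.219. Both comparisons use the same day 1 cultures. In such sums, more dividing cells and more of the transcript per dividing cell cannot be told apart. Values by class of cell are given further on, for a cycling class whose make-up also differed by day.

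Between days 3 and 7 no single member passed the test. edgeR called 0 of 49 members, against 0.183% of all genes called as higher. The DESeq2 Wald test and limma also called 0. An unadjusted edgeR p under 0.05 was found for 2 members, and for 2066 of all 17466 genes. The median fold change was 0.29, against 0.01 over all genes, with 42 members higher and 7 lower on day 7, where 50.8% of all genes were higher. In 0 members did each day 7 culture lie above each day 3 culture (2.99% of all genes). The 7 lower members were Cenpe, Ckap2, Gtse1, Psrc1, Ndc80, Kif20b and Cenpa, and the last 3 differed by no more than 0.03 on the log2 scale.

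The calls for day 7 rested on which cultures were compared. Without day 1 culture 1, edgeR called 9 of the 49 members for day 7 against day 1, and without day 1 culture 2 it called 10. Without day 7 culture 3 it called 25, and without day 7 culture 4 it called 24. The 7 members called whichever culture was left out were Ccnb2, Ncapd2, Cenpa, Aurkb, Nusap1, Psrc1 and Cdc20. The deposited cells come in 2 tables of 384 cells each, which may be a batch. The first table holds day 7 cultures 1 to 4 with culture 1 of days 1 and 3, and the second holds the other 5 cultures. Within the first table the median fold change for day 7 against day 1 was 3.14, with all 49 members higher and 0 called by edgeR. Within the second it was 1.00, with 48 higher and 1 called, and with the table as a second term 18 were called. A day with a single culture in a table was assumed to vary like the other days. For day 3 against day 1 the medians were 2.54 and 1.79, with all 49 members higher in each table and with 0 and 2 called. For day 7 against day 3 the direction turned, with a median of 0.61 and 46 members higher in the first table and a median of -0.83 and 2 members higher in the second. The second table holds a single day 7 culture, culture 5, so that culture and table cannot be told apart there.

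**Figure D1:**
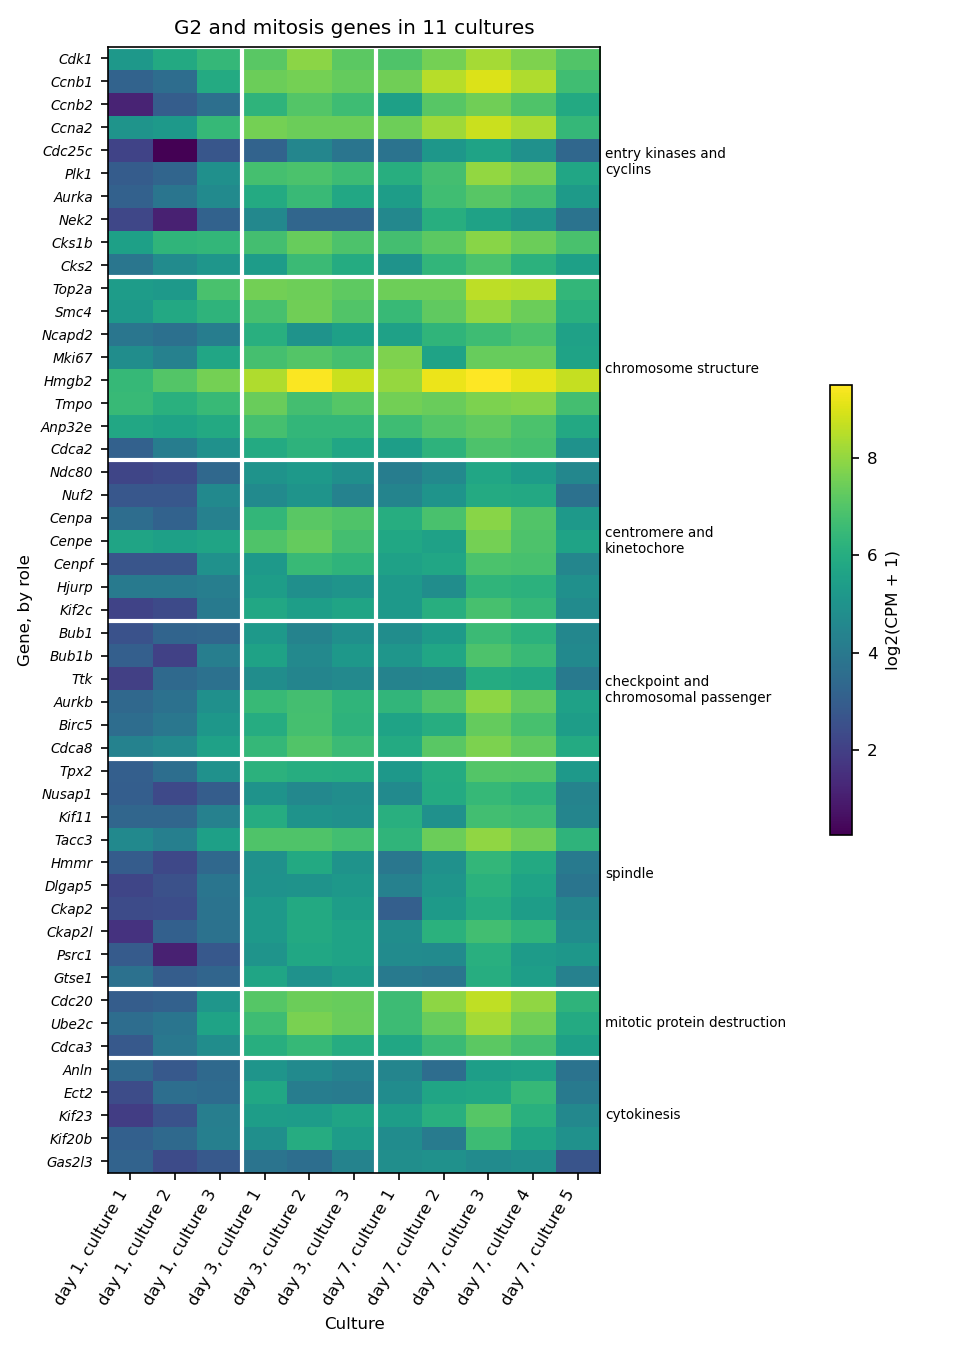
Level of each of the 49 genes (rows, by role) in each of the 11 cultures (columns), as log2(CPM + 1) in colour. Each day 3 column is brighter than each day 1 column in 48 of the 49 rows, and each day 7 column is in 37. Among the day 7 columns cultures 3 and 4 are brightest for most genes while culture 5 is nearer to day 1.

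Since 41 of the members rose together by day 7, promoters of 6 named genes are shown, from 250 bases before to 50 bases after the start of the gene as RefSeq gives them on GRCm38.p6. Late cell cycle promoters are known to hold the cell cycle genes homology region, written TTTGAA or TTCGAA, which the repressor and activator complexes of these genes read, and CCAAT, the site of the factor NF-Y. Each motif was searched on both strands, where the reverse of TTTGAA reads TTCAAA and that of CCAAT reads ATTGG. The letters TTCGAA read the same on both strands and were counted once, and matches could overlap. Capitals mark matches to any of the 3. The first set holds promoters with both kinds of match, from Ccnb2 and Cdc20, which had the largest rises of the 49, and from Cenpa and Top2a. All 6 windows were chosen after values and matches were seen, and Plk1, which rose as much as Cenpa (log2 fold change 3.20 against 3.19) and whose window has 1 TTTGAA and 1 CCAAT match, is not printed. The 4 are Ccnb2 (chr9:70421505-70421804, minus strand), Cdc20 (chr4:118437294-118437593, minus strand), Cenpa (chr5:30666636-30666935, plus strand) and Top2a (chr11:99024140-99024439, minus strand).
Ccnb2: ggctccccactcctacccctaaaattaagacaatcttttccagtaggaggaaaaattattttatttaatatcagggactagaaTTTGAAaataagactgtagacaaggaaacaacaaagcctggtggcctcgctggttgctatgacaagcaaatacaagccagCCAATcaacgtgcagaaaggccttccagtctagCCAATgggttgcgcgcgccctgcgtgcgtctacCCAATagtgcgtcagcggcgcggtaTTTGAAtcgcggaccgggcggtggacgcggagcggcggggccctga
Cdc20: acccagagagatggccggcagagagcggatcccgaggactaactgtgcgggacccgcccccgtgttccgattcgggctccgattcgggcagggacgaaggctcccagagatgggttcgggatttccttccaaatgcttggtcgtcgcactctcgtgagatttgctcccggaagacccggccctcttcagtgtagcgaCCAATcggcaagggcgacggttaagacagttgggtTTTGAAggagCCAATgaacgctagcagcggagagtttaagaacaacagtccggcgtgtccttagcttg
Cenpa: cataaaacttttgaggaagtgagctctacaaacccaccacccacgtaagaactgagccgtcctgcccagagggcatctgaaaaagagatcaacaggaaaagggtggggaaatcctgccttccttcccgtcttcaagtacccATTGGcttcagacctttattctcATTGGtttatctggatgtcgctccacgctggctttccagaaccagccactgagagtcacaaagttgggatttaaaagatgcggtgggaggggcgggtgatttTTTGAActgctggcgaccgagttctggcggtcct
Top2a: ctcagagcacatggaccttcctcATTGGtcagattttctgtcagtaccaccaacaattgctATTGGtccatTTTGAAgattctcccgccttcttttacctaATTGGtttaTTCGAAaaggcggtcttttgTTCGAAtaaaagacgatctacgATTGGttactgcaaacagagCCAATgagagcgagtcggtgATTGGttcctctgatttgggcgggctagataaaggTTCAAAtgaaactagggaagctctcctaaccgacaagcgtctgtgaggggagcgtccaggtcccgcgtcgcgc
The first base of the gene is position 1 and the base before it position -1. In Ccnb2, 3 CCAAT letters start at -87, -54 and -21 and a TTTGAA at 5. In Cdc20 a TTTGAA starts at -18, between CCAAT letters at -53 and -8. In Cenpa a TTTGAA starts at 17, with reversed CCAAT letters at -109 and -86. The Top2a window holds 6 CCAAT, 2 TTTGAA and 2 TTCGAA matches.

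The second set holds windows with fewer matches, from genes that also had large rises. Ccnb1 (chr13:100786437-100786736, minus strand) has 2 CCAAT matches, at -99 and -67, and none of the other motifs. Nusap1 (chr2:119618048-119618347, plus strand) has no match.
Ccnb1: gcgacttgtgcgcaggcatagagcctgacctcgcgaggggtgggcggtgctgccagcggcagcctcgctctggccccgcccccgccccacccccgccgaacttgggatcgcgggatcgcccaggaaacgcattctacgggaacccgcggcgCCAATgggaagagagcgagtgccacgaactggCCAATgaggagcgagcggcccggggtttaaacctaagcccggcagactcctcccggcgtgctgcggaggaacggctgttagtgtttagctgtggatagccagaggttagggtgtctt
Nusap1: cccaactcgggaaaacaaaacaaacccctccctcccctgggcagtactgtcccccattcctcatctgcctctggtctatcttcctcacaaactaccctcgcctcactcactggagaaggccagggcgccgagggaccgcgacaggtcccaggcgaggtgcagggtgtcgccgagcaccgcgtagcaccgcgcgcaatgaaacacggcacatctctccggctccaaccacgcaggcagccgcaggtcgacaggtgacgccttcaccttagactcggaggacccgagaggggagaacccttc
Of 46 windows of 42 members in the RefSeq table, 76.1% held TTTGAA or TTCGAA, against 19.2% of all 32851 windows. CCAAT was in 80.4% of the member windows against 37.4% of all, and 58.7% against 11.7% held it at least 2 times. Both kinds stood together in 65.2% of the member windows and in 7.53% of all. Of 49 TTTGAA or TTCGAA matches in member windows, 73.5% started from 100 bases before the start to the window's end, against 41.4% of such matches in all windows. For CCAAT the shares were 68.1% and 53.8%. Windows of 55 other mitosis genes held TTTGAA or TTCGAA in 59.7% and CCAAT in 62.9%, and windows of 15 core genes of the anaphase-promoting complex in 16.7% and 38.9%. A match is a run of letters and not a tested binding site.

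Among the kinases and cyclins of mitotic entry, edgeR called 9 of 10 as higher on day 7 than on day 1, with a median fold change of 2.79. Ccnb1 and Ccnb2 encode the B-type cyclins that switch on Cdk1. Ccnb2 (ENSMUSG00000032218.7, GRCm38 chromosome 9 from 70407692 to 70421547) had 1.31, 6.91 and 11.6 CPM in the 3 day 1 cultures, 75.2, 131 and 97.6 CPM in the 3 day 3 cultures and 45.2, 135, 178, 124 and 56.9 CPM in day 7 cultures 1 to 5. Its day 1 values all lay under its lowest value of the later days, and it had the largest rise of the 49 (log2 fold change 4.04 with an SE of 0.68, adjusted p 0.00585 in edgeR) and the largest day 3 difference (log2 fold change 3.94 with an SE of 0.70, adjusted p 0.0850 in edgeR, not called). Ccnb1 (ENSMUSG00000041431.16, chromosome 13 from 100778650 to 100786570) had 8.34, 10.9 and 59.1 CPM on day 1, 172, 188 and 158 CPM on day 3 and 179, 365, 512, 339 and 99.6 CPM on day 7. It rose by a log2 fold change of 3.52 between days 1 and 7 (adjusted p 0.0132 in edgeR, SE 0.71), with day 1 culture 3 and day 7 culture 5 nearest to each other. Ccna2, the A-type cyclin of S phase and G2, had 31.7, 37.7 and 87.3 CPM on day 1, 191, 171 and 169.7 CPM on day 3 and 174, 290.1, 431, 316 and 84.9 CPM on day 7. Day 7 culture 5 lay under day 1 culture 3, and the gene was called (log2 fold change 2.31 with an SE of 0.49, adjusted p 0.0164 in edgeR). Nek2, a kinase that parts the centrosomes, had 3.66, 1.15 and 7.99 CPM on day 1, 22.7, 8.97 and 8.86 CPM on day 3 and 23.1, 65.3, 47.1, 33.1 and 12.7 CPM on day 7. It rose between days 1 and 7 (log2 fold change 3.10 with an SE of 0.70, adjusted p 0.0223 in edgeR) and had the largest difference between days 3 and 7, 1.42, which was not called (edgeR adjusted p 0.402). Reads of Ccna2 and of the opposite-strand gene Exosc9, which shares 510 exon bases with it, cannot be told apart if strand was not used, and Exosc9 had 37564 reads against 101565. Nek2 shares 298 exon bases with opposite-strand Gm38037, which had 1015 reads against 11300.

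Among the genes of chromosome structure edgeR called 7 of 8, with a median fold change of 1.90, and of the 41 called members Anp32e and Tmpo of this group had the smallest rises. Hmgb2, a DNA-bending protein, had 85.4, 131 and 188 CPM on day 1, 332, 689 and 426 CPM on day 3 and 259, 604, 720.1, 563 and 405 CPM on day 7. No day 7 culture overlapped day 1, and it rose by a log2 fold change of 1.92 (adjusted p 0.0112 in edgeR, SE 0.37). Top2a, the topoisomerase that untangles sister chromatids, had 40.4, 36.96 and 114 CPM on day 1, 182, 173 and 146 CPM on day 3 and 175, 173, 384, 357 and 82.99 CPM on day 7. Day 7 culture 5 lay under day 1 culture 3, and the gene was called (log2 fold change 1.88 with an SE of 0.51, adjusted p 0.0436 in edgeR). Tmpo, which encodes lamina-associated proteins of the nuclear envelope, had 89.3, 68.8 and 89.5 CPM on day 1, 168, 106 and 133 CPM on day 3 and 183, 165, 203, 218 and 106 CPM on day 7. It rose between days 1 and 7 by 1.08 (SE of 0.25, edgeR adjusted p 0.0223) and had the smallest day 3 difference of the 49, 0.72. Anp32e, a chaperone that removes the histone H2A.Z, had 55.4, 47.7 and 58.3 CPM on day 1, 109, 82.7 and 82.2 CPM on day 3 and 97.7, 131, 149.6, 116 and 55.7 CPM on day 7. It rose by 1.03 (SE of 0.28, edgeR adjusted p 0.0421), though day 7 culture 5 stood within the day 1 range. Its day 3 difference of 0.76 was the next smallest and was not called.

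At the centromere and kinetochore edgeR called 4 of 7, with folds that differed widely between the genes. Cenpa, the histone that defines the centromere, had 10.8, 8.09 and 19.01 CPM on day 1, 82.7, 139 and 123 CPM on day 3 and 63.9, 115, 232, 127 and 36.9 CPM on day 7. It rose between days 1 and 7 (log2 fold change 3.19 with an SE of 0.55, adjusted p 0.00681 in edgeR) and its day 3 and day 7 means were 115 ± 29.1 and 115 ± 74.9 CPM. Ndc80, the main microtubule-binding subunit of the kinetochore, had 3.602, 4.09 and 9.58 CPM on day 1, 31.4, 36.1 and 28.1 CPM on day 3 and 17.3, 23.7, 51.8, 40.7 and 22.4 CPM on day 7, and rose by 2.44 (SE of 0.45, edgeR adjusted p 0.00877). The pseudogene 2700099C18Rik, 95.05% identical to Ndc80 over an aligned stretch of 303 bases, had 3109 reads against 14520, and reads of that stretch may have been split between them. Cenpe, the kinesin that carries chromosomes to the spindle equator, had 49.2, 44.9 and 49.7 CPM on day 1, 122, 156 and 106 CPM on day 3 and 54.03, 45.2, 189, 118 and 47.98 CPM on day 7. Its day 1 values were close together, day 7 cultures 2 and 5 lay within them, and the day 3 values stood apart from day 1. It had the smallest day 7 difference of the 49 (0.93, SE of 0.44, edgeR adjusted p 0.218) and the lowest value for day 7 against day 3 (-0.49, SE of 0.42, edgeR adjusted p 0.763).

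All 6 genes of the checkpoint and the chromosomal passenger complex were called for day 7 against day 1, and in all 6 each day 7 culture lay above each day 1 culture. Aurkb, the kinase of the passenger complex that corrects wrong attachments, had 9.59, 12.2 and 28.7 CPM on day 1, 88.5, 106 and 78.3 CPM on day 3 and 79.9, 122, 242, 155 and 46.2 CPM on day 7. It rose by a log2 fold change of 2.94 (adjusted p 0.00795 in edgeR, SE 0.53). Cdca8, which encodes borealin, a subunit of the same complex, had 19.7, 23.7 and 45.4 CPM on day 1, 84.5, 126 and 92.4 CPM on day 3 and 59.2, 138, 204, 148 and 59.2 CPM on day 7, and rose by 2.04 (SE of 0.45, edgeR adjusted p 0.0193). The other 4 were Birc5, whose product survivin is a further subunit, and the checkpoint kinases or kinase-like genes Bub1, Bub1b and Ttk, with fold changes from 2.05 to 2.78.

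Among the spindle genes edgeR called 9 of 10, all but Gtse1. Tacc3, which stabilises spindle fibres, had 24.3, 18.2 and 45.1 CPM on day 1, 123, 122 and 103 CPM on day 3 and 77.8, 171, 248, 179 and 75.2 CPM on day 7, and rose by 2.36 (SE of 0.43, edgeR adjusted p 0.00852). It shares 289 exon bases with the opposite-strand gene Tmem129, which had 24929 reads against 61787, with the same limit as for Ccna2. Tpx2, a spindle assembly factor that activates Aurora A, had 7.29, 11.3 and 29.6 CPM on day 1, 71.97, 63.7 and 62.9 CPM on day 3 and 35.6, 60.9, 128, 125 and 36.6 CPM on day 7, and rose by 2.27 (SE of 0.55, edgeR adjusted p 0.0292). The values of both genes had no overlap between days 1 and 7. Nusap1, which bundles microtubules around chromosomes, had 7.17, 3.92 and 6.89 CPM on day 1, 31.01, 23.04 and 26.5 CPM on day 3 and 24.97, 58.8, 87.3, 74.8 and 19.99 CPM on day 7. It rose by a log2 fold change of 3.15 between days 1 and 7 (adjusted p 0.00462 in edgeR, SE 0.51), and its day 7 against day 3 difference of 0.98 was next to that of Nek2 in size and not called. It shares 172 exon bases with opposite-strand Oip5, which had 1800 reads against 19198. Psrc1, a spindle microtubule protein, had 6.54, 1.15 and 5.94 CPM on day 1, 31.6, 53.9 and 48.1 CPM on day 3 and 25.5, 24.7, 66.8, 39.4 and 34.9 CPM on day 7. It had a clear gap between day 1 and both later days and rose by day 7 (log2 fold change 3.08 with an SE of 0.56, adjusted p 0.00783 in edgeR), while its day 3 difference of 3.30 was not called (edgeR adjusted p 0.0850). Ckap2, a microtubule-associated protein, had 4.18, 4.504 and 12.7 CPM on day 1, 36.2, 57.7 and 41.7 CPM on day 3 and 7.31, 38.8, 62.9, 41.5 and 20.96 CPM on day 7, with day 7 culture 1 within the day 1 range, and was called (log2 fold change 2.28 with an SE of 0.61, adjusted p 0.0437 in edgeR). Gtse1, a microtubule protein of G2, had 12.2, 6.86 and 8.75 CPM on day 1, 50.3, 30.1 and 39.01 CPM on day 3 and 15.5, 13.8, 63.95, 42.6 and 19.2 CPM on day 7. All its day 7 values exceeded day 1 but 3 of them lay close to it, and it was not called (log2 fold change 1.74 with an SE of 0.51, adjusted p 0.0575 in edgeR).

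The 3 genes of mitotic protein destruction were all called for day 7 against day 1. Cdc20 (ENSMUSG00000006398.15, GRCm38 chromosome 4 from 118432901 to 118437352), the activator of the anaphase-promoting complex, had 6.86, 7.71 and 33.3 CPM on day 1, 131, 169.9 and 163 CPM on day 3 and 95.9, 242, 390.2, 248 and 77.03 CPM on day 7. Its rise was next to that of Ccnb2 (log2 fold change 3.73 with an SE of 0.68, adjusted p 0.00809 in edgeR), with all later cultures above day 1. It shares 53 exon bases with the opposite-strand gene Elovl1, which had 60742 reads against 81678. Ube2c, the ubiquitin-conjugating enzyme that works with the complex, had 10.8, 13.5 and 48.2 CPM on day 1, 96.9, 196 and 166 CPM on day 3 and 95.4, 162, 305, 185 and 59.2 CPM on day 7, and rose by 2.74 (SE of 0.61, edgeR adjusted p 0.0214). Of the 5 cytokinesis genes, edgeR called 3. Kif23, a kinesin of the central spindle, had 2.88, 5.01 and 17.8 CPM on day 1, 41.3, 40.4 and 50.00 CPM on day 3 and 40.99, 66.98, 131, 68.9 and 22.6 CPM on day 7. It rose by day 7 (log2 fold change 2.96 with an SE of 0.65, adjusted p 0.0201 in edgeR) with no overlap. Kif20b, a kinesin needed late in cytokinesis, had 7.49, 9.83 and 17.9 CPM on day 1, 27.9, 62.8 and 39.9 CPM on day 3 and 26.2, 16.3, 95.5, 49.4 and 29.5 CPM on day 7. Its day 7 culture 2 lay within the day 1 range, and it was not called (log2 fold change 1.89 with an SE of 0.55, adjusted p 0.0573 in edgeR).

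**Figure D2:**
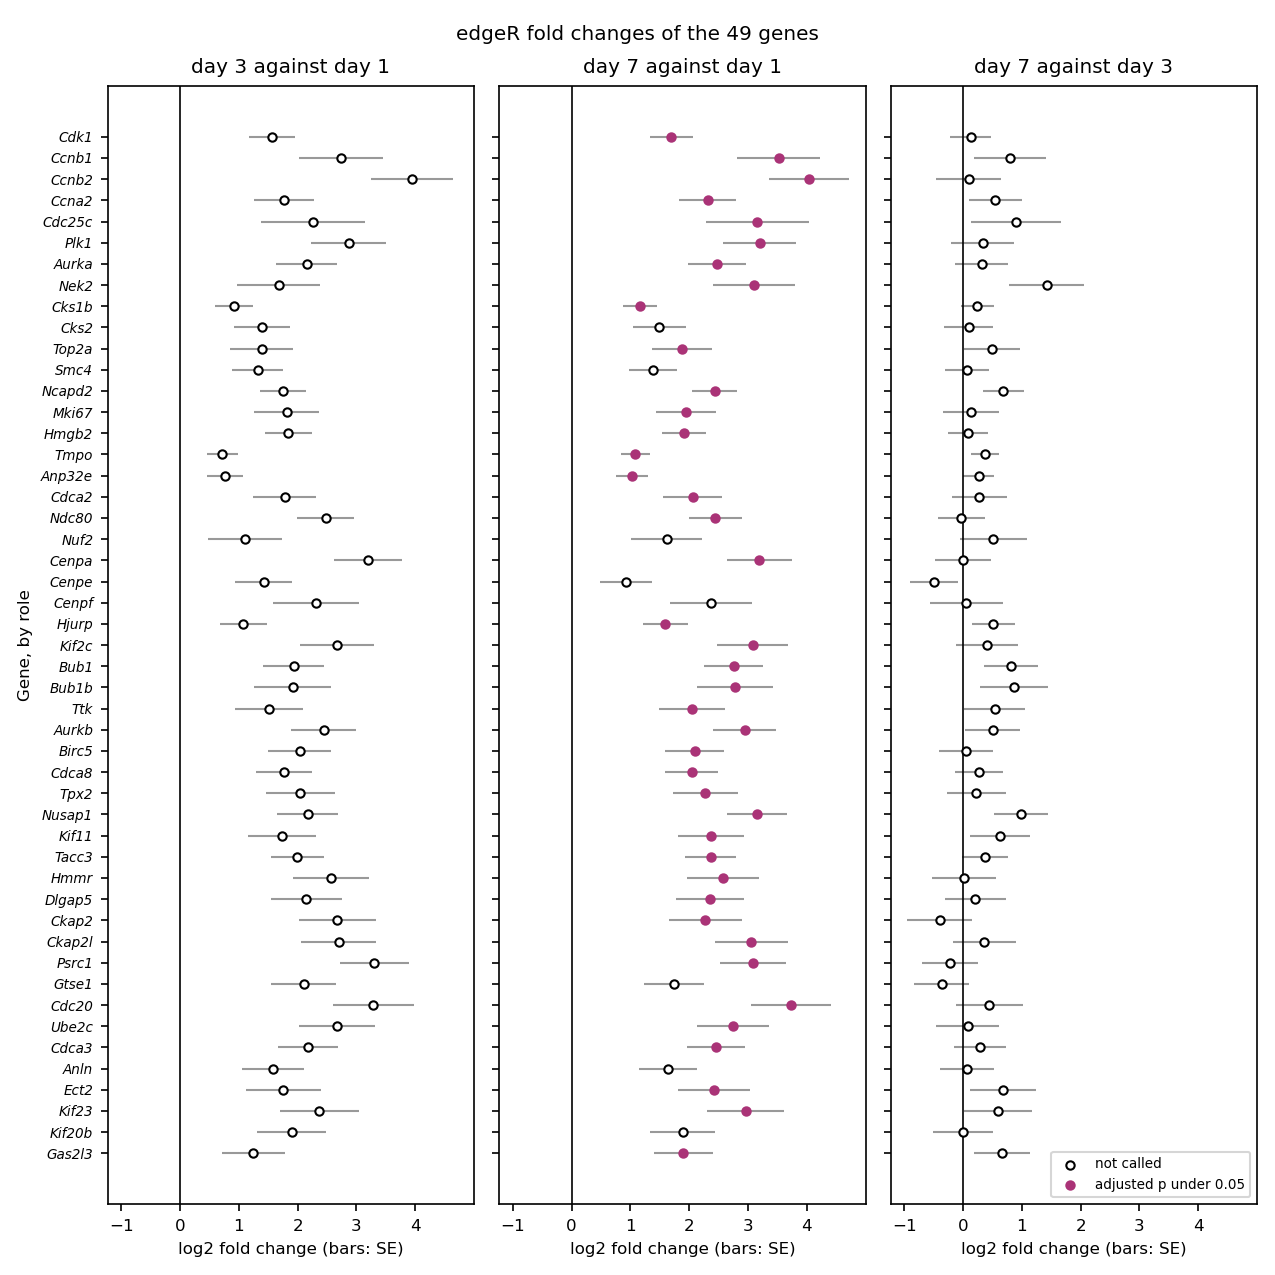
edgeR log2 fold change (horizontal axis) of each of the 49 genes (vertical axis, by role) in the 3 comparisons, with bars for the SE and filled points for an adjusted p under 0.05. All points lie right of 0 in the comparisons with day 1, 41 are filled for day 7 against day 1, and the points of day 7 against day 3 spread around 0 with 42 to its right.

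The members also differed in level on a scale per length. Over the 11 cultures Hmgb2 had the highest mean, 133.3 CPM per kb of exon, followed by Cks1b at 109.3, Cks2 at 80.3, Cdc20 at 76.1 and Ccnb2 at 51.2 CPM per kb. Cks1b and Cks2 are small partners of the cyclin-dependent kinases. Gas2l3 at 2.31 and Anln at 2.37 CPM per kb were lowest. On day 1 the order was headed by Cks1b (60.6 CPM per kb), Hmgb2 (44.9) and Cks2 (35.3), with Anp32e at 15.1, whereas Cdc20 stood at 8.54 and Ccnb2 at 4.31 CPM per kb. Exon length was taken over all isoforms, which lowers the value of genes with long alternative exons.

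Other genes of the pathway were counted in 3 further lists. None of the 3 had a member called by edgeR for day 3 against day 1 or for day 7 against day 3. The 22 regulators of cell cycle transcription had 5 and 3 members at an unadjusted p under 0.05 in these comparisons, 67 other mitosis genes had 43 and 2, and 16 core genes and cofactors of the anaphase-promoting complex had 3 and 1. Of all 17466 genes tested, 1617 and 2066 were under this unadjusted threshold. For day 7 against day 1, 27 of the 67 other mitosis genes were called as higher and 0 as lower, with 66 of 67 higher and a median fold change of 1.49. Depdc1a, a spindle gene, had 2.94 ± 0.413 CPM on day 1 (SD, n = 3) and 25.3 ± 11.2 CPM on day 7 (n = 5; fold change 3.11, adjusted p 0.00238 in edgeR). Sgo1, the protector of centromeric cohesion, went from 2.38 ± 0.711 to 16.3 ± 7.26 CPM (2.77, edgeR adjusted p 0.00440), and Bub3, a checkpoint protein, from 154.4 ± 29.7 to 379.2 ± 94.4 CPM (edgeR adjusted p 0.00743). Of the 22 regulators, 4 were called, all higher. Nfyb, a subunit of NF-Y, went from 18.7 ± 5.97 to 48.9 ± 6.45 CPM (1.39, edgeR adjusted p 0.00707). Foxm1, a transcription factor of G2 genes, went from 5.22 ± 2.38 to 21.7 ± 11.6 CPM (2.05, edgeR adjusted p 0.0393), and Rbbp4, a histone-binding subunit of the complexes at these promoters, from 112.7 ± 13.6 to 169.6 ± 15.3 CPM (0.59, edgeR adjusted p 0.0393). Tfdp1, the partner of the E2F factors, was the other. The core genes of the anaphase-promoting complex, which Cdc20 activates, had 1 of 16 called and a median of 0.28. Cdc23 rose from 94.8 ± 9.11 to 156.1 ± 31.7 CPM (0.72, edgeR adjusted p 0.0458), while Anapc4 (0.73, edgeR adjusted p 0.0508) and Cdc16 (0.56, edgeR adjusted p 0.0615) were not called. The shares of these lists called can be read against the same 3.55% of all genes.

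In single cells the number of members with a read ran from a few to all 49. Retained cells were brought to a common depth of 200000 reads by random thinning, which kept 695 of the 711 cells. On day 1, 29 of 175 cells had a read in at least 25 of the 49 genes, on day 3 it was 105 of 222 and on day 7 it was 140 of 298. No cell lacked all 49 genes, and on each day at least 1 cell had a read of all 49. On day 1 most cells, 114 of 175, had reads of 5 to 14 members, and 11 had 15 to 24. On day 3 the middle range of 15 to 24 held 41 of 222 cells and on day 7 38 of 298.

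**Figure D3:**
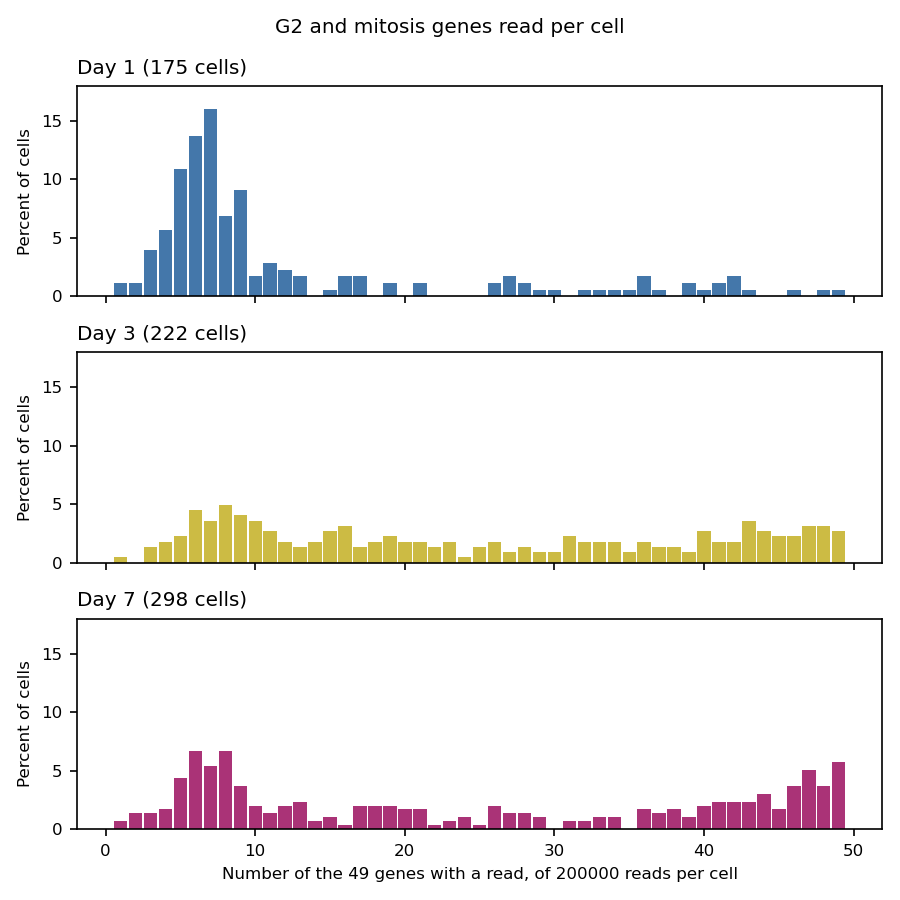
Percent of cells (vertical axis) by the number of the 49 genes with a read among 200000 reads per cell (horizontal axis), for days 1, 3 and 7. Day 1 has its main peak between 5 and 9 genes and a thin tail, while days 3 and 7 spread up to 49 genes and day 7 has a second rise at 46 to 49.

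Cells were classed as cycling when at least 3 of 6 members, Mki67, Top2a, Cdk1, Birc5, Ccnb2 and Tpx2, had a read. This is a range of a score and not a cell type, and 13 and 4 cells on day 1, 19 and 26 on day 3 and 20 and 22 on day 7 stood at 2 and 3 of the 6 genes. All 6 genes had a read in 12 of the 34 cycling cells on day 1, 62 of 141 on day 3 and 101 of 177 on day 7. The class thus differed in make-up by day, and the part of this in the comparisons within it was not tested. By culture the share of cells classed as cycling was 21.2, 16.5 and 23.7% on day 1, 70.2, 62.1 and 56.9% on day 3, and 59.0, 43.2, 87.0, 75.6 and 25.3% in day 7 cultures 1 to 5. The means were 20.4 ± 3.66% (SD, n = 3), 63.1 ± 6.70% (n = 3) and 58.0 ± 24.7% (n = 5). Each day 3 culture lay above each day 1 culture, and so did each day 7 culture, of which culture 5 lay closest. The exact 95% binomial interval of culture 5 ran from 15.99 to 36.7% and that of culture 3 from 76.7 to 93.9%, for counting error only, and as reads without molecular identifiers are not separate molecules the same holds for every count here. Day 7 culture 5 also had the highest median share of mitochondrial reads, 6.76% against 2.72 to 4.51% in the other cultures, the fewest detected genes in cycling cells (6165 against 6604 to 8402), and the highest Dcn, 1093 CPM against 198.0 to 760.8. Their part in its share was not tested. No doublet caller was run on the hand-picked cells.

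**Figure D4:**
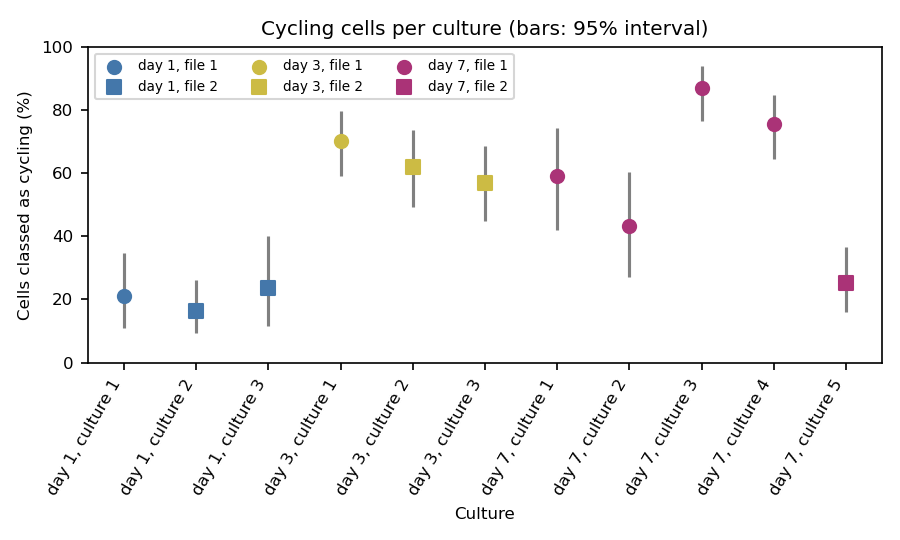
Percent of cells classed as cycling (vertical axis) in each of the 11 cultures (horizontal axis), with exact 95% binomial intervals, colours for days and circles and squares for the first and the second deposited table. The 3 day 1 cultures sit between 16.5 and 23.7%, the 3 day 3 cultures between 56.9 and 70.2%, and the 5 day 7 cultures from 25.3 to 87.0%.

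The other 43 members, which did not define the class, each had more reads in cycling than in other cells when the days were pooled, from 66.9 to 99.5% of their reads. On day 1, where 34 of 175 cells were cycling, 9 of the 43 had under 50% of their reads in those cells, the lowest being Anp32e at 23.8% and Psrc1 at 36.4%. On days 3 and 7, where 141 of 222 and 177 of 298 cells were cycling, none of the 43 had under 50%. Psrc1 was lowest with 62.7% and 71.6%. These shares rise with the share of cycling cells, so they cannot be compared between days as a preference for such cells. The CPM values of this paragraph are means over thinned cells, without TMM scaling. In CPM, each of the 43 was higher in cycling than in other cells on days 1 and 7. On day 3, 42 of them were. Over all days 352 cells were classed as cycling and 343 were not, at similar depth (per culture, median reads of 575300 to 1046000 in the cycling and 655500 to 946200 in the other cells). With the days pooled, cycling cells held 99.5% of the Ccnb1 reads, 99.3% of those of Nuf2 and 99.2% of those of Hmmr, a spindle protein. Ccnb1 had a read in 79.3% of cycling and 4.96% of other cells after thinning, and in 82.4% and 9.33% before it. Cdc20 was read in 76.1% and 15.7%, and Cenpa in 81.8% and 19.0%. At the other end of the pooled shares, cycling cells held 66.9% of the Psrc1 reads, 69.3% of those of Anp32e, 75.7% of those of Tmpo and 79.1% of those of Cks1b. Hmgb2 had a read in 99.2% of cycling and 89.2% of other cells, at 681.1 and 111.0 CPM, and Cks1b in 96.9% and 77.8%. Psrc1 had a read in 50.3% of cycling and 22.5% of other cells, and on day 3 its level was 41.5 CPM in the former and 43.1 CPM in the latter.

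In cycling cells the mean share of reads taken by the members was larger on the later days, with overlap between cultures. Reads of the 49 genes made up 0.384 ± 0.141% of all reads of cycling cells on day 1 (SD, n = 3), 0.614 ± 0.0886% on day 3 (n = 3) and 0.743 ± 0.157% on day 7 (n = 5), and 0.0417, 0.0613 and 0.0794% in the other cells. Day 1 culture 3, with 9 cycling cells, stood at 0.533%, above day 3 culture 1 at 0.516% and day 7 culture 1 at 0.497%. These shares include the 6 class genes and are given without a test. Among cycling cells alone, edgeR called 9 of the 43 other members as higher on day 7 than on day 1, against 1.98% of the 14918 genes tested there. All 43 had a positive fold change, with a median of 1.02 against 0.03 over all genes. The 9 were Ccnb1, Plk1, Ncapd2, Anp32e, Cenpa, Kif2c, Aurkb, Psrc1 and Cdc20, of which Plk1 (a kinase of mitotic entry), Ncapd2 (a condensin subunit) and Kif2c (a kinesin that takes microtubules apart) are named after their values were seen. For day 3 against day 1, 0 of 43 were called (0.0469% of all genes called as higher). Of the 43, 15 had an unadjusted p under 0.05, as did 1519 of the 14918 genes. Without day 1 culture 3, 2 of the 43 were called, and without day 7 culture 1 it was 1. For day 7 against day 3, 0 were called (0.0201% of all genes called as higher). Here 4 of the 43 had an unadjusted p under 0.05, as did 1082 of the 14918 genes.

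Within cycling cells Cdc20 had 15.9, 25.1 and 97.2 CPM on day 1, 181, 291 and 291 CPM on day 3 and 143, 440.5, 428, 317 and 248 CPM on day 7. Its day 7 cultures all lay above day 1, and it rose by a log2 fold change of 2.78 (adjusted p 0.0162 in edgeR, SE 0.56). Psrc1 had 7.12, 4.73 and 10.6 CPM on day 1, 31.6, 62.5 and 42.2 CPM on day 3 and 11.8, 40.01, 63.5, 42.3 and 63.7 CPM on day 7, and rose by 2.57 (SE 0.53, edgeR adjusted p 0.0178). Its day 7 culture 1 stood near day 1 and the other 4 cultures did not. Ccnb1 had 42.1, 73.8 and 227 CPM on day 1, 242, 326 and 289 CPM on day 3 and 308, 721, 569, 434 and 358 CPM on day 7, and rose by 2.06 (SE 0.47, edgeR adjusted p 0.0294). Cenpa rose by 1.89, Plk1 by 1.64, Kif2c by 1.54, Aurkb by 1.34, Ncapd2 by 1.20 and Anp32e by 0.96 (edgeR adjusted p from 0.0176 to 0.04003). Nusap1 had a fold change of 2.38 and was not called (0.0553 as edgeR adjusted p). Other members had fold changes near 0 in cycling cells. Cenpe had 157, 122 and 127 CPM on day 1, 165, 255 and 178 CPM on day 3 and 92.7, 87.5, 206, 150.2 and 142 CPM on day 7, a fold change of 0.00 (SE 0.27), and Nuf2 had 0.04 (SE 0.37), Cks1b 0.29 (SE 0.24) and Smc4, a condensin subunit, 0.36 (SE 0.29). Day 7 culture 5 had the lowest share of cycling cells. Within cycling cells it was the lowest day 7 culture for 5 of the 43 members and the highest for 5, while culture 1 was lowest for 33. In culture 5 Hmgb2 was at 961.4 CPM against 385.3 to 998.8 in the other day 7 cultures and Ndc80 at 80.7 against 29.6 to 57.9.

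**Figure D5:**
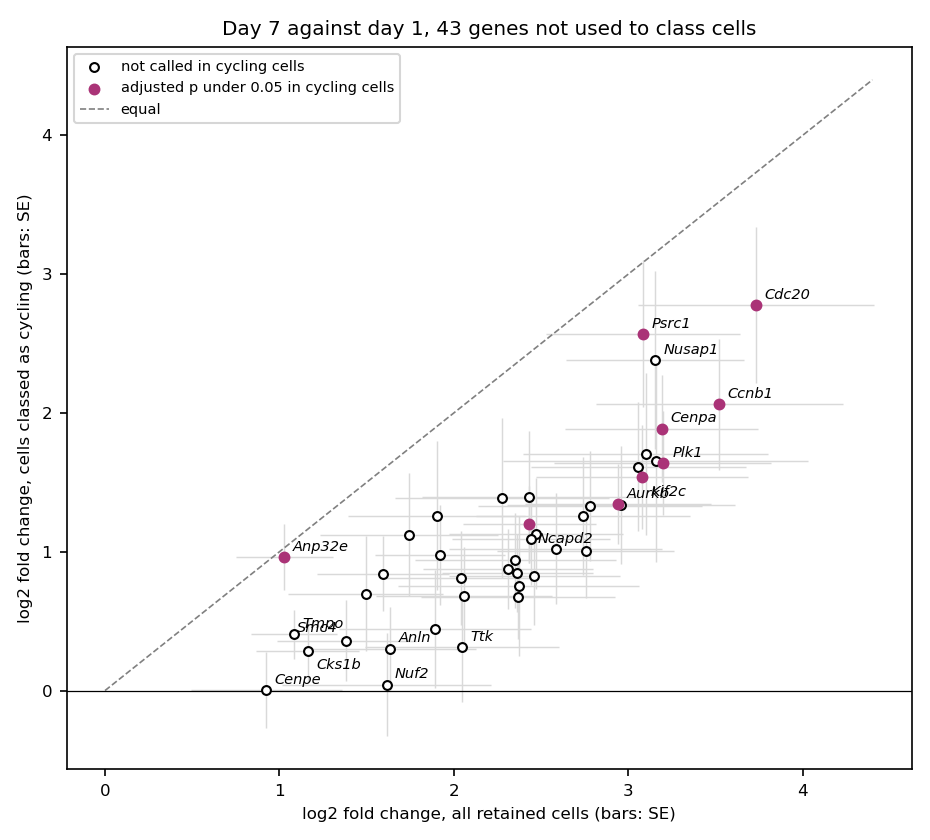
edgeR log2 fold change for day 7 against day 1 of the 43 genes that did not define the class, over all retained cells (horizontal axis) and over cycling cells alone (vertical axis), with bars for the SE, filled points for an adjusted p under 0.05 in cycling cells and a dashed line for equal values. All points lie under the line and at or above 0, from Cenpe at 0.00 to Cdc20 at 2.78 on the vertical axis.

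These calls also rested on single cultures. Without day 1 culture 2 edgeR called 0 of the 43 in cycling cells for day 7 against day 1, without day 1 culture 1 it called 2, and without day 7 culture 2, 3 or 4 it called 4, 4 and 5. Day 1 had 34 cycling cells in all, 11, 14 and 9 in its 3 cultures. In the cells not classed as cycling, where most members were near 0, edgeR called 1 of 43 for day 7 against day 1 (0.487% of 15192 genes called as higher). It was Cdca3, whose product promotes mitotic entry and which is named after its value was seen, at 0.363, 1.11 and 1.06 CPM on day 1 and 9.68 to 26.1 CPM on day 7 (log2 fold change 4.12, adjusted p 0.0396 in edgeR, SE 0.85). When 1 culture was left out, edgeR called 1 of the members in these cells without day 3 culture 1 or day 7 culture 3 or 4, and 0 without any of the other cultures. For day 3 against day 1 and day 7 against day 3, 0 were called in these cells, and 0.00658% and 0.118% of all genes were called as higher. An unadjusted p under 0.05 was found for 5 and 3 of the 43, and for 574 and 1745 of the 15192 genes.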

How the data were processed

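SmartSeq2 libraries of 768 single cells from 11 cultures were used. In 2 tables the authors deposited expected counts, without normalisation, for each gene in each cell. STAR 2.5.3a, RSEM 1.3.0 and the builds mm10 and GRCm38 are named in the submitters' processing notes, which do not give their order or role, and the use of strand is not given in the sources used here. Of the deposited expected counts above 0, 10.6% were not whole (tolerance 1e-06). Counts were rounded per cell and summed per culture over the 711 retained cells. Depth per culture was 26391412 to 72483565 reads, and a larger sum has the smaller counting error.

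The quasi-likelihood test of edgeR 4.0.16 (R 4.3.3) was used after TMM scaling and filterByExpr, in 1 fit of the 11 cultures with no term but day and with Benjamini-Hochberg adjustment over all tested genes. The 49 members, the role groups and the lists were chosen with earlier results of these data known. The cycling class used 6 members, so the other 43 were tested within it, in cultures with at least 5 classed cells. Alternatives used DESeq2 1.42.0, limma 3.58.1 (log2 of the mean CPM per cell plus 1), other filters and classes, each table alone, and each culture left out. Gene positions came from GENCODE M21, where 93.3% of the genes and 44 of 49 members had the same identifier and version. Promoters came from RefSeq. Reads on rows that name no mouse gene (92 spike-ins and 4 transgenes) were 0.005% and were left out.

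Named with values in every culture were the 2 members of each role group with the highest mean CPM, the 2 with the largest and the 2 with the smallest fold change in each comparison, and those against the majority's direction. From each pathway list the 3 genes with the smallest adjusted p for day 7 against day 1 were named.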

Additional observations from a re-analysis of the deposited data

How the results depend on the processing

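The number of members called for day 3 against day 1 was 0 in edgeR with TMM and with RLE scaling, 3 without the filter on low counts, 28 with the DESeq2 Wald test, 9 with limma, 2 with the second table alone and 1 with only these days in the fit. For day 7 against day 1 it was 41, and 0 and 1 with the first and the second table alone and 18 with the table as a term. Leaving out each culture in turn gave 0 to 0, 9 to 45 and 0 to 0 called members in the 3 comparisons. In cycling cells it gave 0 to 2 (day 3 against day 1), 0 to 11 (day 7 against day 1) and 0 to 0, and in the other cells 0 to 0, 0 to 1 and 0 to 0. For day 3 against day 1 in cycling cells, 1 member was called without the low filter and 1 with a class of at least 2 of the 6 genes. In the other cells the 1 call for day 7 against day 1 became 2 without the low filter, 0 with at least 2 and 2 with at least 4 of the 6 genes. The share of cycling cells was 28.7% on day 1 and 71.8% on day 3 with at least 2 of the 6 genes, 51.5% on day 3 with at least 4, and 24.3% on day 1 without thinning. Leaving out each culture gave 18.8 to 22.4%, 59.5 to 66.2% and 50.8 to 66.2%. Of 1518 alternatives of the 23 named members, 1371 stayed on the same side of the threshold. In 0 did the direction turn where either fit called the gene. A turn of direction between fits that both lacked a call was not counted. No member was called for day 7 against day 1 in every alternative. Where the construction of the alternative does not show the cause, the cause was not tested.

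Cultures of different days share replicate numbers. The deviations of same-numbered cultures from their day correlated at -0.0101 to 0.0614, none above 0.1, so the numbers were not taken as pairs, and 7 of the 9 cultures numbered 1 to 3 correlated best with their own number, a hint from the data and not from the design. With the culture number as a replicate block, 8, 42 and 0 members were called in the 3 comparisons, 0, 9 and 0 in cycling cells, and 0 in each comparison of the other cells.

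The 9 to 14 cycling cells of each day 1 culture limit the precision of the comparison within that class. Single reads decide many values of the members in the other cells.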

Other observations

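Mki67, which encodes the marker protein Ki-67 of the chromosome surface, ran through the day 7 cultures in another order than the cyclins. It had 208.9, 48.6, 164.1, 161.8 and 48.6 CPM in day 7 cultures 1 to 5, where Ccnb1 had 179.4, 365.3, 511.9, 339.4 and 99.6 CPM. Culture 1 was thus highest for Mki67 and lowest but for culture 5 for Ccnb1. In the cycling cells, which Mki67 helped to define, it had 354.0, 97.6, 183.3, 207.8 and 155.3 CPM. Kif11, the kinesin that pushes spindle poles apart, was the member most like it over the 11 cultures (Pearson r of log2 CPM 0.914, a description over cultures that differ in their share of cycling cells) and had 66.6, 29.7, 103.2, 95.3 and 21.1 CPM on day 7. Cks2 was least like it (0.605). Mki67 and Kif11 were chosen after their values were seen, and no test was made.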
